A study of Mus musculus with 26 samples.

Results

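The genes described here are 45 genes of the mouse 26S proteasome and its partners, out of 25146 genes with a value in every library. They were taken by name: every gene called Psma, Psmb, Psmc, Psmd, Psme, Psmf or Psmg followed by a number, without the 3 catalytic genes of the immunoproteasome, Psmb8, Psmb9 and Psmb10. They hold 14 genes of the core particle (7 of the alpha ring, 3 catalytic and 4 other genes of the beta ring), 17 of the regulatory particle (6 ATPases and 3 other genes of the base, 8 of the lid), 7 assembly chaperones, 4 activators, 1 inhibitor and 2 core subunits known for their restriction to one organ. They lie on 16 chromosomes. Of the 45 genes, 44 reached 5 RPM (reads per 1000000 reads) in at least 2 of the 26 libraries.

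The proteasome is the protease that degrades most ubiquitin-tagged proteins in the cytosol and nucleus. Alpha rings close the ends of the barrel-shaped core and beta rings hold its active sites, while the regulatory particle binds, deubiquitinates, unfolds and threads in the substrate. Its subunits are built in fixed stoichiometry with the help of chaperones, and the plasma cell, which secretes antibody and disposes of misfolded chains, is known for its sensitivity to proteasome inhibitors.

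The series followed cells that express the transcription factor BLIMP1, and the cells before or after them, by sequencing the 3′ ends of messages amplified from 1 ng of RNA, in 13 groups of 2 libraries. The day 2 primordial germ cell-like cells (d2 PGCLC) came from embryonic stem cells of mixed C57BL/6 and 129 background carrying Blimp1-mVenus, stella-ECFP and Rosa26-rtTA, which were transfected, turned into epiblast-like cells and induced with BMP4 and BMP8A (500 ng/ml each), EGF at 50 ng/ml, SCF at 100 ng/ml and LIF at 1000 U/ml, and were sorted as BV positive. All other groups came from C57BL/6 mice homozygous for an EGFP inserted at the N terminus of BLIMP1, so that no group lacked a reporter allele. Intestinal epithelium was sorted for EPCAM from embryos at E16.5 (BLIMP1-positive cells) and at postnatal days 3 and 14 (P3 and P14, BLIMP1-negative cells), so that age and gate changed together. Retinal photoreceptor precursors were BLIMP1-positive cells at P0, BLIMP1-positive CD73-negative cells at P4 (P4 GFP+CD73-), and CD73-positive cells at P4, P6 and P10. B220-positive spleen cells of mice aged 8 to 10 weeks (B cell) were set beside 3 sorts from purified B cells kept for 3 days with IL-4 (2 ng/mL) and LPS (10 ng/mL): blasts negative for BLIMP1 and CD138 (Blast), pre-plasmablasts positive for BLIMP1 alone (prePB), and plasmablasts positive for both (PB). No label says that the 2 libraries of a group came from separate animals or cultures, so p-values measure the spread between these libraries, which may be technical.

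The libraries held between 1716491 and 6040033 reads, as worked out from the value of a single read. Markers of the labelled identity were the highest of any lineage in each of the 4 lineages, and Sdc1, which encodes CD138, was at 0 in both Blast libraries. The margin was small for the germ cell-like list, whose 5 genes include Prdm1, the gene of BLIMP1. It summed to 588 to 613 RPM in d2 PGCLC against 506 to 509 RPM in P4 GFP+CD73-. The lines used summed to 96.5 to 97.8% of the nominal 1000000 RPM in libraries outside the B lineage, but to 91.6 and 91.9% in B cell, 96.0 and 95.5% in Blast, 86.5 and 82.7% in prePB and 68.9 and 65.1% in PB libraries; the lines left out lack values for some libraries, and immunoglobulin genes such as Ighm are among them. B-lineage values are therefore given as deposited and also after median-of-ratios scaling, which divided each library by a constant that brings the typical gene to the same level. A 3′-end RPM value is not per unit of transcript length, so each gene is compared with itself across groups and genes are not ranked against one another. Of the 45 genes, 12 overlap another RefSeq gene and 6 overlap a protein-coding one (Psmd1, Psme4, Psmd10, Psmf1, Psma4 and Psme1), and whether counting used the strand is not stated by the labels or headers.

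Summed over its 14 genes, the core particle stood highest in d2 PGCLC libraries, at 6775 and 6470.5 RPM. The intestinal libraries held 4218 to 4670.5 RPM and the retinal ones 3226 to 4151 RPM. Within the B lineage the sum was 2698 and 2449.7 RPM in B cell, 5401 and 6102 RPM in Blast, 5027 and 5511 RPM in prePB and 3257 and 3583 RPM in PB libraries. As deposited, the B cell libraries were the lowest of all 26, and the 2 Blast libraries lay above every intestinal and retinal one. After scaling within the B lineage the core sum was 2136 and 1918 in B cell, 4725 and 5215 in Blast, 4953 and 5680.1 in prePB and 4409 and 4991 in PB libraries, so that PB overlapped with Blast and prePB and lay above B cell. The 17 genes of the regulatory particle summed to 4094 and 4090.4 RPM in d2 PGCLC, 2159 to 2566 RPM in intestinal, 2352 to 3050.1 RPM in retinal and 1688 and 1510.5 RPM in B cell libraries. In the culture they summed to 2836 and 3218 RPM in Blast, 2552 and 2707 RPM in prePB and 1838 and 1729 RPM in PB libraries. After scaling the regulatory sum was 1336 and 1183 in B cell, 2481 and 2750.5 in Blast, 2514 and 2790.00 in prePB and 2488 and 2408 in PB libraries, with both B cell libraries below all others and both PB libraries below both prePB ones. The deposited sums are shares of the sequenced messages; in bulk RNA, fewer cells of a type and less RNA per cell cannot be told apart.

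**Figure D1:**
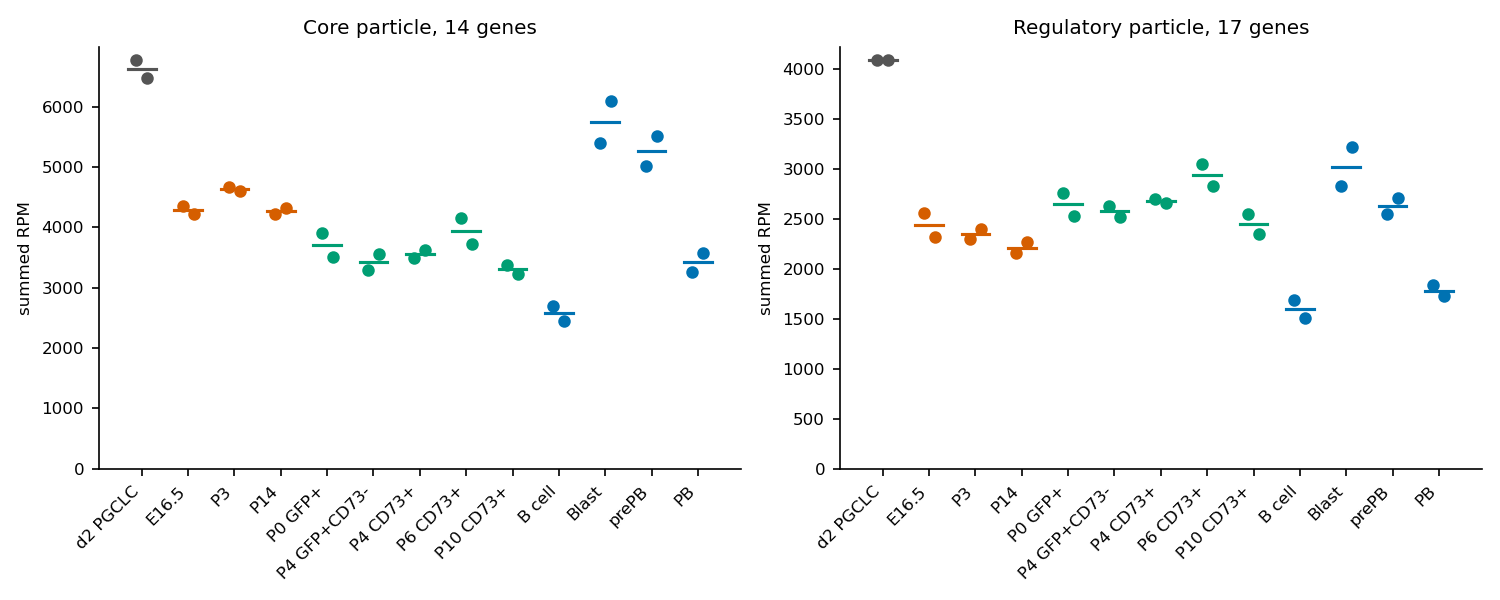
Summed RPM of the 14 core genes and of the 17 regulatory-particle genes in each of the 26 libraries (1 point a library, 13 groups along the x axis). On these deposited values both sums are highest in d2 PGCLC and, within the B lineage, have their highest mean in Blast (after scaling in prePB).

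The ratio of the core sum to the regulatory sum was lowest in the retina. It was 1.25 to 1.41 in the 10 retinal libraries and 1.65 and 1.58 in d2 PGCLC. It was 1.60 and 1.62 in B cell, 1.90 and 1.90 in Blast, 1.97 and 2.04 in prePB and 1.77 and 2.07 in PB libraries, and 1.90 to 2.03 at P3 and P14 against 1.70 and 1.82 at E16.5. The retinal libraries overlapped with no other group in this ratio, while PB and prePB libraries overlapped. The ratio is the same on the deposited and the scaled values, and it was not tested.

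The subunit genes varied less between groups than most genes did. Between the highest and the lowest of the 13 group means, the 31 core and regulatory genes spanned a median of 1.48 on the log2(RPM + 1) scale, against 3.23 for the 14131 genes that passed the filter. That filter also admits genes that reached 5 RPM in only 2 libraries, whose range can be wide for that reason. The lowest value of any of the 31 was 18.3 RPM (Psmc2 in PB). The 31 were not compared with genes read at like levels in every group. The narrowest was Psmd13 of the lid (0.91) and the widest Psma5 of the alpha ring (2.17). As deposited, the highest group mean was in d2 PGCLC for 21 of the 31 genes, in Blast for 7, in P3 for 2 and in prePB for 1, and the lowest was in B cell for 18 and in PB for 8. After scaling over all 26 libraries, the highest was in d2 PGCLC for 13, in prePB for 11, in PB for 3, in Blast for 3 and in P3 for 1. The lowest was in B cell for 12, in P3 for 1 and in PB for none. For the rest it was in the retina: P10 for 7, P4 GFP+CD73- for 6, P0 for 2, P4 CD73+ for 2 and P6 for 1. In which groups all genes had their highest and lowest means was not counted. These counts of the 31 are therefore not read as a trait of the members. All 44 genes tested differed somewhere among the 13 groups in limma's F test at adjusted p under 0.05, as did 99.4% of all genes tested.

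**Figure D2:**
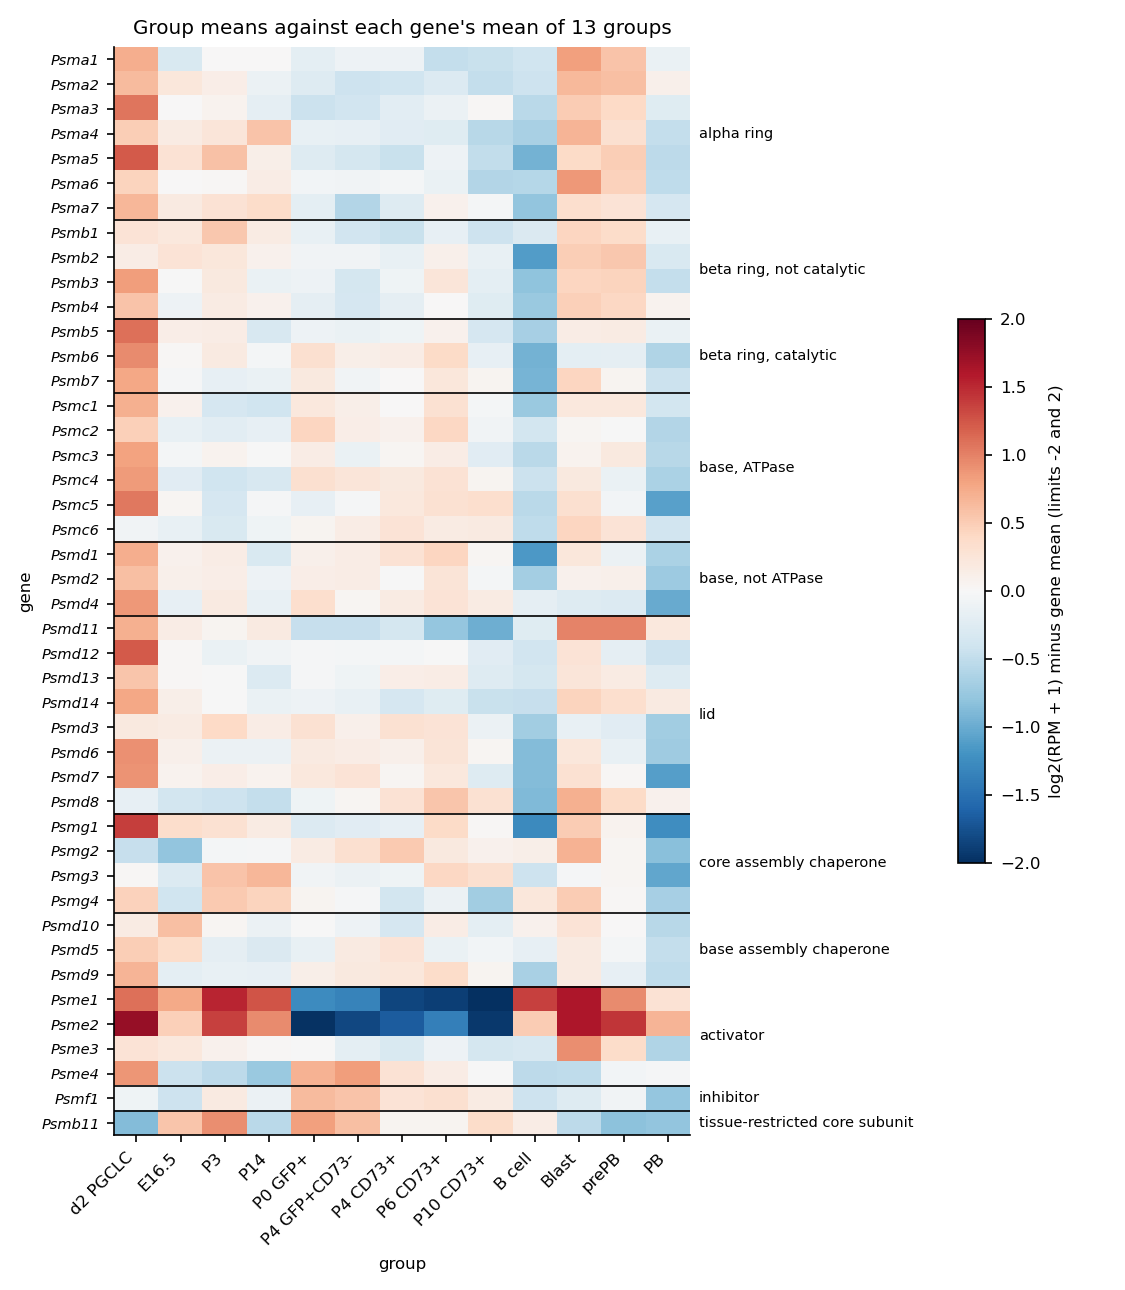
Heat map of the 44 genes that passed the filter (rows, by role) over the 13 groups (columns). Colour is the log2 of the group mean RPM plus 1, minus the gene's mean of this value over the groups. The scale ends at −2 and 2. The d2 PGCLC column is high for most genes, the B cell column is low for most core genes, and Psme1 and Psme2 are low in the 5 retinal columns.

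In the alpha ring, whose N-terminal tails gate the entry to the core, Psma5 varied most. It had 530.4 and 478 RPM in d2 PGCLC, 195 to 341 RPM in intestinal and 149 to 213 RPM in retinal libraries. In the B lineage it had 119 and 104 RPM in B cell, 215 and 351 RPM in Blast, 290.3 and 317 RPM in prePB and 149.8 and 151 RPM in PB libraries. Its lowest group as deposited was thus B cell. Psma1, Psma2, Psma4 and Psma6 had their highest group mean in Blast, and Psma3, Psma5 and Psma7 in d2 PGCLC. Psma2 varied least in the ring, with 269.5 to 685 RPM over the 26 libraries and a log2 range of 1.12 between group means.

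The 3 catalytic genes of the beta ring are Psmb5, which carries the chymotrypsin-like activity, Psmb6, which carries the caspase-like one, and Psmb7, which carries the trypsin-like one. Psmb5 had 569.8 and 525 RPM in d2 PGCLC, 178 to 295 RPM in intestinal, 190.1 to 298 RPM in retinal and 159 to 314 RPM in B-lineage libraries. Psmb6 had 473 and 489, 229 to 304, 221 to 360.1 and 112 to 235 RPM in the same order, and Psmb7 had 327 and 348, 175 to 195, 184 to 249.97 and 86.1 to 267 RPM. All 3 were highest in d2 PGCLC by group mean. Their log2 ranges lay close together, with 1.91 for Psmb6 the widest and 1.72 for Psmb7 the narrowest. Among the structural beta genes, Psmb2 spanned 1.65, with its highest mean in prePB, and Psmb1 0.99, with its highest mean in P3; Psmb3 and Psmb4 were highest in d2 PGCLC and lowest in B cell, as the catalytic genes were.

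In lymphoid cells and under interferon, Psmb8, Psmb9 and Psmb10 take the places of Psmb5, Psmb6 and Psmb7. Of the summed RPM of these 6 genes, the 3 constitutive ones made up 98.1 to 99.1% in the retinal libraries, 77.2 and 79.4% in d2 PGCLC, and 84.6 and 85.5% at E16.5. They made up 64.2 and 67.2% at P3 and 69.6 and 69.4% at P14. In the B lineage they made up 47.9 and 45.7% in Blast, 48.0 and 46.3% in prePB and 47.1 and 47.2% in PB, against 33.9 and 31.0% in B cell libraries. The retinal share was the highest and the B cell share the lowest of all groups, with no overlap with any other group. The 6 genes are not put on a scale per length here, so these shares compare groups and say nothing of how much of each protein is present.

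Among the 6 ATPases of the base, which unfold the substrate, Psmc5 spanned a log2 range of 2.14 and Psmc6 0.91. Psmc5 had 375 and 371 RPM in d2 PGCLC, 126 to 202 RPM in intestinal, 146 to 236 RPM in retinal and 88.5 and 79.2 RPM in PB libraries, its lowest group as deposited. Psmc2, Psmc3 and Psmc4 likewise had their highest mean in d2 PGCLC and their lowest in PB, and Psmc1 its lowest in B cell. Psmc6 stayed between 28.3 and 71.8 RPM over all libraries. In the rest of the base, Psmd4, a ubiquitin receptor, spanned 1.89 and Psmd2, a scaffold that binds shuttle factors, 1.33. In the lid, Psmd7, the partner of the deubiquitinase Psmd14, spanned 2.00, with 239 and 241 RPM in d2 PGCLC and 59.5 and 59.0 RPM in PB libraries, and Psmd13 stayed between 52.2 and 124 RPM throughout. Of the other 6 lid genes, Psmd6, Psmd12 and Psmd14 were highest in d2 PGCLC, Psmd8 and Psmd11 in Blast and Psmd3 in P3.

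The median log2 range of the 7 assembly chaperone genes was 1.35, and that of the 5 activator and inhibitor genes 1.63. The 31 core and regulatory genes had a median of 1.48. Psmg1, which with Psmg2 guides formation of the alpha ring, had 98.5 and 97.1 RPM in d2 PGCLC but 16.6 and 13.0 RPM in B cell and 14.2 and 15.9 RPM in PB libraries, a log2 range of 2.65. Psmg4 spanned 1.22. Of the chaperones of the base, Psmd9 spanned 1.35 and Psmd5 0.96. Psme3 and Psme4 encode nuclear activators and Psmf1 an inhibitor of the core; Psme3 spanned 1.51 and Psmf1 1.42.

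Psme1 and Psme2 encode the subunits of an interferon-inducible activator ring that caps the core without ATP, and Psme1 had the widest range of all 44 genes, 4.16. Psme1 had 456 and 449 RPM in d2 PGCLC, 334 to 625 RPM in intestinal, 250.2 to 698 RPM in B-lineage and 32.5 to 91.1 RPM in retinal libraries. Psme2 had 612 and 576, 219 to 479, 248 to 568 and 38.5 to 73.5 RPM in the same order. Summed, the pair came to 76.5 to 136 RPM in the 10 retinal libraries, below each of the 16 others, while the 10 retinal core sums overlapped with those of the PB libraries. Psmb8, Psmb9 and Psmb10 together came to 7.78 to 12.5 RPM in the retina.

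**Figure D3:**
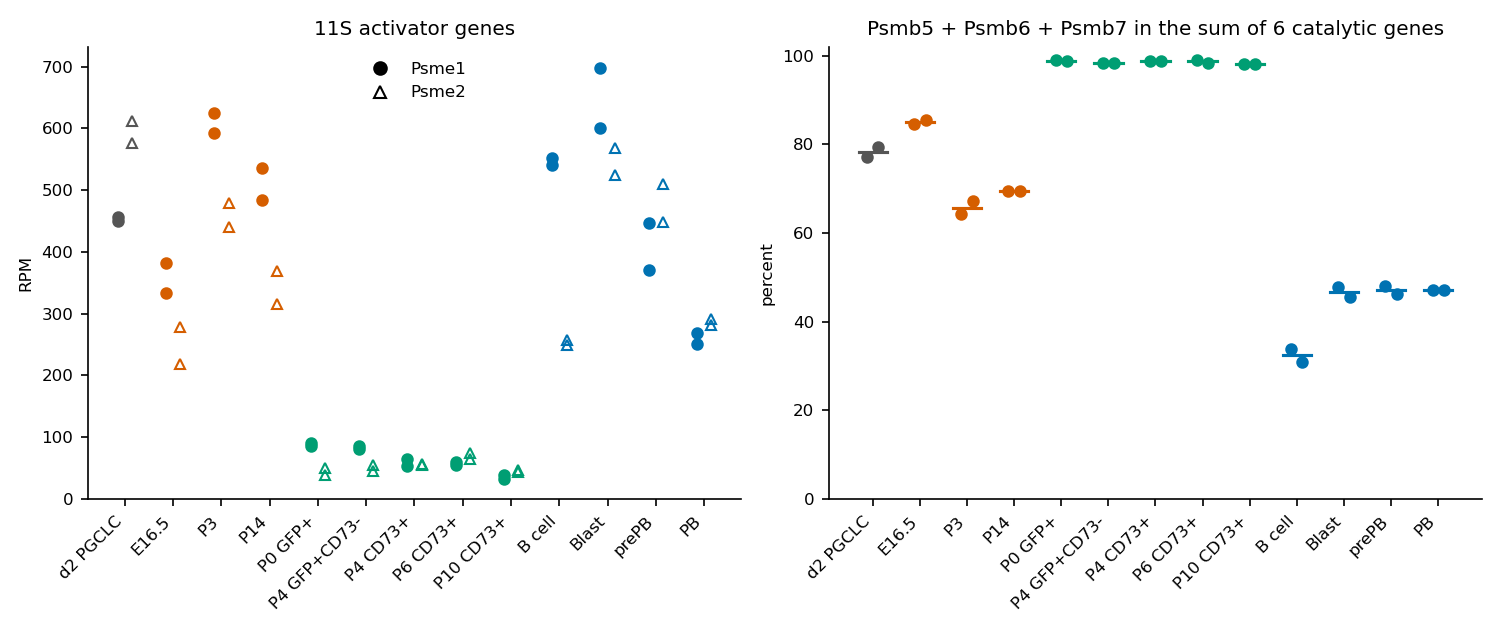
Left, RPM of Psme1 (filled circles) and Psme2 (open triangles) in the 2 libraries of each of the 13 groups; right, the share of Psmb5, Psmb6 and Psmb7 in the summed RPM of the 6 catalytic genes, in percent. The retina has the lowest activator values and the highest share, between 98.1 and 99.1%, and B cell the lowest share, 33.9 and 31.0%.

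The 2 organ-restricted genes were barely read. Psma8, the alpha subunit of the testis, had 0 to 1.75 RPM and was not tested in any comparison. Psmb11, the catalytic subunit of cortical thymic epithelium, had 0.836 to 8.34 RPM, was tested in the intestine, the retina and the fit of all libraries, and had whole-read values in 5 of 26 libraries.

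Promoter sequence was looked at because the transcription factors NFE2L1 and NFE2L2 are known to act on proteasome genes through antioxidant response elements. RefSeq windows of 300 bases (250 before to 50 after the start, GRCm38.p6) were found for 37 of the 45 genes. The letters TGACNNNGC, on either strand, occurred in 6 of the 37 genes (16.2%), against 13.99% of all 27025 genes with a window. CCAAT occurred in 35.1% against 41.1%, and AGTGAAAG, the core of the BLIMP1 motif, in 1 gene, Psmg4 (2.70%), against 1.56%. These shares are near the background, and a match describes letters and not a bound site. The match starts 9 bases before the start in Psmb6 and 7 bases before it in Psme4, and those 2 are not shown. In Psmc6, Psmd12 and Psme4 the match reads on the opposite strand. The stretches with TGACNNNGC are shown for the other 4 genes, 5′ to 3′ on the gene's own strand with the match in capitals. They lie at chr14:54618018-54618058 (minus strand, Psmb5), chr14:45329581-45329621 (plus, Psmc6), chr11:107479278-107479318 (plus, Psmd12) and chr5:123228143-123228183 (plus, Psmd9), and the match starts 47, 227, 247 and 31 bases before the start in that order.
Psmb5: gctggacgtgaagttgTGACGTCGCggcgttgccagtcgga
Psmc6: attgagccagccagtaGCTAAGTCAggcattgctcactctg
Psmd12: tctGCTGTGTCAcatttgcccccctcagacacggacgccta
Psmd9: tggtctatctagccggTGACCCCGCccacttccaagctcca

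Blast against B cell set cultured, stimulated cells that were negative for BLIMP1 beside fresh splenic cells. Core and regulatory genes were higher in Blast almost throughout: 32 of the 43 genes tested rose and none fell, in limma's moderated test with Benjamini-Hochberg adjustment over the 9871 genes tested. Of all genes tested, 21.1% rose and 30.5% fell. All 14 core genes rose, 7 of 7 in the alpha ring, 3 of 3 catalytic and 4 of 4 other beta genes. In the regulatory particle 15 of 17 rose, 5 of 6 ATPases, 2 of 3 other base genes and 8 of 8 lid genes, against 1 of 4 core chaperones, 0 of 3 base chaperones and 2 of 4 activators. The median log2 fold change of the 43 genes was 0.91, against −0.18 over all genes.

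The gene with the largest rise was Psmg1, the alpha-ring chaperone, which had 41.1 and 64.7 RPM in Blast against 16.6 and 13.0 RPM in B cell libraries (log2 fold change 1.75, SE 0.26, adjusted p = 7.61e-05). Psmd8, a lid scaffold, had 419 and 487 RPM in Blast against 149 and 149 RPM in B cell libraries (log2 fold change 1.59, SE 0.16, adjusted p = 2.5e-06). Psmb2, a structural beta subunit, had 254 and 404 against 98.9 and 117 RPM (log2 fold change 1.57, SE 0.20, adjusted p = 2.15e-05), and Psma6 of the alpha ring had 754 and 581 against 244 and 248 RPM (log2 fold change 1.43, SE 0.16, adjusted p = 5.79e-06). For each of these 4 genes the lower Blast library lay above the higher B cell library.

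The catalytic genes rose as well. Psmb7 had 265 and 267 RPM in Blast against 119.8 and 86.1 RPM in B cell libraries (log2 fold change 1.38, SE 0.18, adjusted p = 2.23e-05). Psmb5 had 253 and 314 RPM in Blast against 159 and 161 RPM in B cell libraries (log2 fold change 0.81, SE 0.16, adjusted p = 0.000755), and Psmb6 had 197 and 235 against 145 and 112 RPM (log2 fold change 0.75, SE 0.17, adjusted p = 0.00187). After median-of-ratios scaling the 3 log2 fold changes were 1.51, 0.95 and 0.89, and 33 genes rose, among them all 32 of the deposited scale, against 24.4% of all genes on the scaled values. Myeloid, T-cell and NK-cell markers moved with this comparison: their 15 genes summed to 24.7 to 38.9 RPM in Blast against 444 to 553 RPM in B cell libraries, with 3 of the 15 at 0 in both Blast libraries and none in both B cell ones. Their part in the result was not tested.

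Of 9 genes of the same machine that carry other names, 4 rose in Blast and none fell, against 21.1% and 30.5% of all genes: Txnl1, a thioredoxin-like protein bound to the proteasome (log2 fold change 1.38), Pomp, a chaperone of core assembly (1.25), and the deubiquitinases Uchl5 (1.02) and Usp14 (1.00). The other 5 were not called, and the median of the 9 was 0.52.

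The prePB and Blast cells were sorted from the same kind of culture and differ in the BLIMP1 gate. Few subunit genes differed between them. Of 43 genes, none rose and 2 fell, against 6.33% and 12.6% of all genes; the members' median was −0.11 and that of all genes −0.24. Both that fell encode activators: Psme1 had 446 and 370.2 RPM in prePB against 599.8 and 698 RPM in Blast libraries (log2 fold change −0.67, SE 0.16, adjusted p = 0.0092), and Psme3 had 178 and 193 against 236 and 309 RPM (log2 fold change −0.54, SE 0.17, adjusted p = 0.0367). After scaling neither was called (Psme1 −0.45, adjusted p = 0.0653) and Psme4 was higher (0.67, adjusted p = 0.0157), against 5.74% of all genes lower and 8.74% higher on the scaled values. Leaving out prePB replicate 2 left neither of the 2 falls, and leaving out prePB replicate 1 or Blast replicate 2 left 1. The catalytic genes had log2 fold changes of 0.02 for Psmb5, 0.03 for Psmb6 and −0.39 for Psmb7 as deposited, 0.24, 0.25 and −0.17 after scaling, and none was called on either scale.

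In the same comparison the genes of p97 and of degradation from the endoplasmic reticulum (ERAD), which hand misfolded secretory proteins to the proteasome, were often higher. Of 25 tested, 12 rose and none fell, against 6.33% and 12.6% of all genes. After scaling 15 rose, against 8.74% of all genes. Derl3, a channel component, had 156 and 178 RPM in prePB against 26.9 and 27.7 RPM in Blast libraries (log2 fold change 2.57), and Edem1, which trims sugars of misfolded glycoproteins, had 475 and 528 against 90.9 and 104 RPM (2.35). The list's median was 0.60, against −0.24 over all genes. In Blast against B cell, 2 of the 25 rose and 7 fell, against 21.1% and 30.5% of all genes, so that the falls were near the background and the rises below it.

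The PB and prePB cells differ in the CD138 gate. The deposited values of the subunit genes were lower in PB. Of 43 genes, 26 fell and none rose, against 24.7% and 2.87% of all genes, and the members' median was −0.64 against −0.39 over all genes. In every one of the 31 core and regulatory genes both PB libraries lay below both prePB libraries as deposited. After scaling that held for 15 of the 31, while 13 overlapped and Psmb5, Psmd12 and Psmd14 had both PB libraries above both prePB ones; Psmd14 then had 232 and 221 in PB against 183 and 189 in prePB libraries. The scaled log2 fold change was positive for 6 of the 31, and no member rose, against 8.17% of all genes on that scale. How many of all genes were separated in this way, or had a positive change, was not counted. These counts of the 31 are therefore not read as a trait of the members. The test called 9 of the 14 core and 11 of the 17 regulatory genes lower, among them 6 of 7 alpha and 5 of 6 ATPase genes, but 0 of the 3 catalytic genes and 3 of 8 lid genes. After scaling 5 of the 43 genes fell, all among the 26, and the scaled members' median was −0.20; 7.01% of all genes fell on that scale. Besides the scale, single libraries moved the count of falls, to 15 without PB replicate 2 and 12 without prePB replicate 2.

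The largest fall was of Psmg1, with 14.2 and 15.9 RPM in PB against 37.5 and 40.2 RPM in prePB libraries (log2 fold change −1.31, SE 0.26, adjusted p = 0.00253; scaled −0.89, adjusted p = 0.0328). Psmd7 of the lid had 59.5 and 59.0 RPM in PB against 123 and 136 RPM in prePB libraries (log2 fold change −1.11, SE 0.17, adjusted p = 0.000367; scaled −0.67, adjusted p = 0.0148). The ATPase Psmc5 had 88.5 and 79.2 against 197 and 150.2 RPM (log2 fold change −1.03, SE 0.19, adjusted p = 0.00129; scaled −0.59, adjusted p = 0.039). These 3, Psma6 and Psme3 fell on both scales. Psma5 (−1.01) and the chaperone Psmg3 (−1.09) fell as deposited, but had adjusted p = 0.0678 and 0.0908 after scaling. The catalytic genes were not called on either scale, at −0.30 for Psmb5, −0.43 for Psmb6 and −0.48 for Psmb7 as deposited and 0.15, 0.01 and −0.03 after scaling, so that the sign of Psmb5 and Psmb6 turned. Of the ERAD genes, 9 of 25 rose and 1 fell as deposited, against 2.87% and 24.7% of all genes. After scaling 11 rose and none fell, against 8.17% and 7.01%. Edem1 (1.28) and Sel1l, an adaptor of the ERAD ligase (1.13), led.

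**Figure D4:**
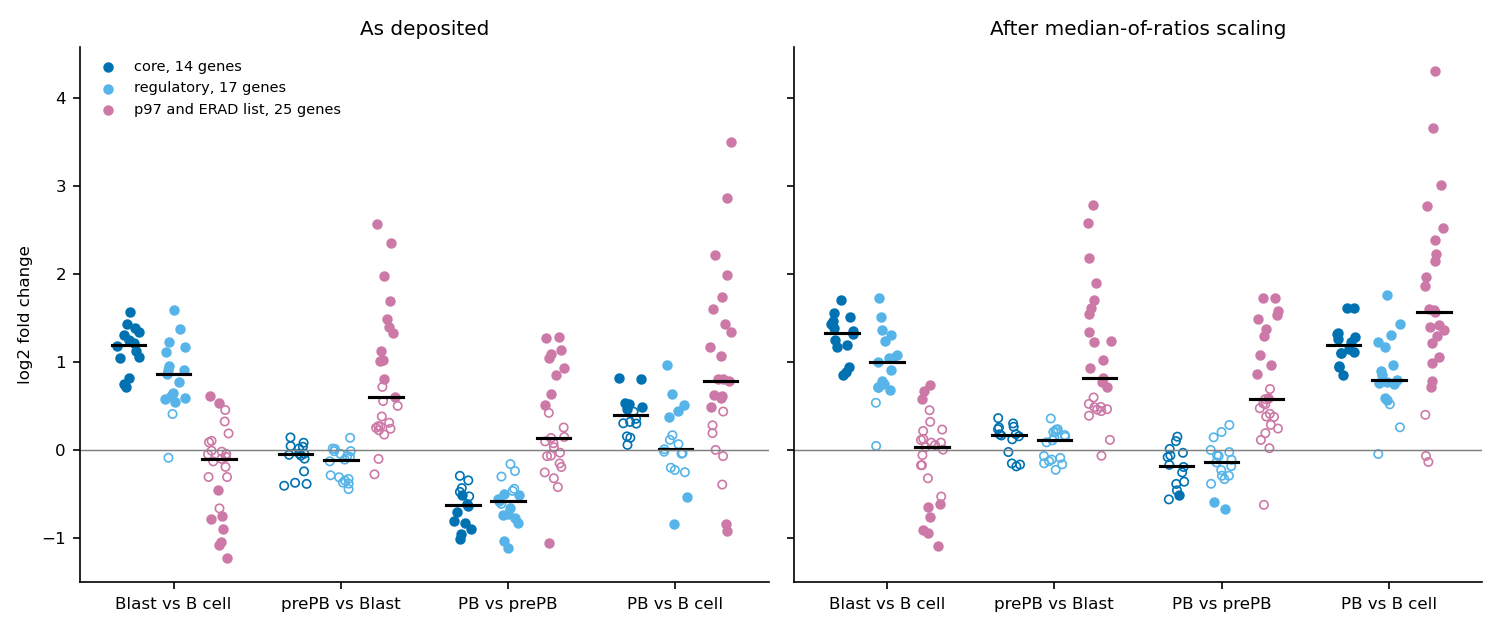
Log2 fold change of each core (14) and regulatory (17) gene and of each p97 and ERAD gene (25) in the B-lineage comparisons, on the deposited and on the median-of-ratios values; filled points passed the test, open ones did not, and bars are medians. All core points lie above 0 in Blast against B cell and in PB against B cell on both scales; regulatory points lie on both sides of 0 in PB against B cell as deposited.

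Over the whole course, PB against B cell, the 2 scales gave different counts. As deposited, 12 of 43 genes rose and 6 fell, against 11.1% and 55.5% of all genes, with a members' median of 0.11 where the median of all genes was −0.77. After scaling 32 rose and none fell, against 25.3% and 25.1% of all genes, with a members' median of 0.89 and 14 of 14 core and 14 of 17 regulatory genes higher. The 12 genes that rose as deposited also rose after scaling, and none of the 6 that fell did so. The count of deposited rises was 6 without PB replicate 2 and 4 without B cell replicate 2, and that of falls was 2 without PB replicate 2 and 3 without B cell replicate 1.

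Psmd8 had 310.5 and 273 RPM in PB against 149 and 149 RPM in B cell libraries (log2 fold change 0.96, SE 0.16, adjusted p = 0.000149; scaled log2 fold change 1.76). Psmb4, a structural beta subunit, had 494 and 512 RPM in PB against 270.3 and 305 RPM in B cell libraries (log2 fold change 0.81, SE 0.15, adjusted p = 0.000309; scaled 1.61). The deubiquitinase of the lid, Psmd14, had 171 and 158 against 106 and 105 RPM (log2 fold change 0.64, SE 0.15, adjusted p = 0.00229; scaled 1.43). In each, both PB libraries exceeded both B cell libraries. Psmb2 too rose, by 0.81 on the log2 scale.

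Of the catalytic genes, Psmb5 had 226 and 238 RPM in PB against 159 and 161 RPM in B cell libraries (log2 fold change 0.53, SE 0.16, adjusted p = 0.00945; scaled 1.33). Psmb7 rose too, by 0.52 as deposited and 1.31 scaled, while Psmb6, at 0.35, was called after scaling alone (1.15, adjusted p = 4.38e-05). Psme1 fell as deposited, with 250.2 and 269 RPM in PB against 541 and 552 RPM in B cell libraries (log2 fold change −1.07, SE 0.16, adjusted p = 4.27e-05), but not after scaling (−0.27, adjusted p = 0.154). The same held for Psmd4 (−0.84; scaled −0.05, adjusted p = 0.847), Psmg2 (−0.99; scaled −0.30) and Psmg4 (−0.90; scaled −0.13). Psmc5 (−0.54) and Psmg3 (−0.64) fell as deposited and had the opposite sign, not called, after scaling (Psmc5 0.26, adjusted p = 0.252; Psmg3 0.12, adjusted p = 0.722). T, NK and myeloid markers summed to 15.7 to 19.5 RPM in PB against 444 to 553 RPM in B cell libraries, with 5 of the 15 at 0 in both PB libraries; their part was not tested. Of the 25 ERAD genes, 17 rose and 2 fell as deposited, against 11.1% and 55.5% of all genes. After scaling 22 rose and none fell, against 25.3% and 25.1%. Edem1 (3.50), Derl3 (2.86) and Sel1l (2.21) led.

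In the intestine, where fetal BLIMP1-positive epithelium is followed by BLIMP1-negative epithelium, few core genes were called, while activator and chaperone genes were. In P3 against E16.5, 5 of 44 genes rose and 3 fell, against 21.3% and 15.8% of all 10481 genes tested, whose median moved by 0.11. The core chaperones Psmg4 (63.7 and 52.8 RPM at P3 against 29.2 and 30.9 RPM at E16.5; log2 fold change 0.93, SE 0.21, adjusted p = 0.001) and Psmg3 (0.84) rose. So did both activator genes, Psme2 with 439.9 and 479 RPM at P3 against 278 and 219 RPM at E16.5 (log2 fold change 0.89, SE 0.15, adjusted p = 4.94e-05) and Psme1 with 593 and 625 against 382 and 334 RPM (log2 fold change 0.77, SE 0.14, adjusted p = 0.000104). Psmf1 rose as well (0.61), though not after scaling (0.50, adjusted p = 0.0656). The base chaperones Psmd10 (−0.58) and Psmd5 (−0.54) and the ATPase Psmc1 (−0.41) fell; none of the 3 calls was kept without P3 replicate 2 or without E16.5 replicate 1, and 1 was without either other library. The rises numbered 3 without P3 replicate 2. The catalytic genes were not called, at 0.02 for Psmb5, 0.16 for Psmb6 and −0.13 for Psmb7.

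The inducible catalytic genes moved with the activators. Psmb8 had 87.8 and 108 RPM at P3 against 4.01 and 12.7 RPM at E16.5 (log2 fold change 3.57), Psmb9 rose by 2.58 and Psmb10 by 1.12, and all 3 were also higher at P14 than at E16.5. T, NK and myeloid markers summed to 21.3 to 23.8 RPM at P3 against 49.4 to 53.9 RPM at E16.5, and 6 of the 15 were at 0 in both libraries of each of the 2 ages.

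In P14 against E16.5, 4 genes rose and 5 fell, against 20% and 19.1% of all genes. The 4 that rose were Psmg3 (0.90), Psmg4 (0.85), Psme1 (0.51) and Psme2 (0.47). The 5 that fell were Psmd10 (−0.72), Psmd5 (−0.66), Psmc1 (−0.48), the base scaffold Psmd1 (−0.38) and Psmb5, which had 178 and 232 RPM at P14 against 295 and 264 RPM at E16.5 (log2 fold change −0.46, SE 0.15, adjusted p = 0.0205). No fall was called without P14 replicate 1 and 2 were without E16.5 replicate 1. Psmb6 (−0.07) and Psmb7 (−0.11) were not called. In P14 against P3, Psmb11 fell, alone of the 44 genes (log2 fold change −1.48, SE 0.45, adjusted p = 0.041), against 4.99% of all genes, and none rose, against 3.67%; it had 2.60 and 1.69 RPM at P14 against 7.11 and 8.34 RPM at P3, close to the filter, and was not called without P14 replicate 1 or either P3 library, nor after scaling (−1.41, adjusted p = 0.0651).

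In the retina few subunit genes were called between P0 and P6. In P4 GFP+CD73- against P0, none of 44 genes was called, against 12.6% of the 11704 genes tested that rose and 9.28% that fell; 2 had an unadjusted p under 0.05 in limma. In P6 against P4 CD73+, again none was called, against 2.32% and 1.95%, and 6 had an unadjusted p under 0.05. The share of all genes with an unadjusted p under 0.05 was not counted in either comparison. These counts of unadjusted p-values are therefore not read as a trait of the members. In P4 CD73+ against P4 GFP+CD73-, none rose, against 6.41%, and 1 fell, against 4.93%: Psme4, the nuclear activator, with 104 and 121 RPM in CD73+ against 176 and 150.3 RPM in CD73- cells (log2 fold change −0.54, SE 0.15, adjusted p = 0.0261). T, NK and myeloid markers summed to 26.0 to 32.0 RPM in the CD73+ libraries against 81.0 to 149 RPM in the CD73- ones, with 6 and 4 of the 15 at 0 in both libraries; their part was not tested. Psme4 was not called without replicate 1 of either group. Log2 fold changes of the 3 catalytic genes in these 3 comparisons lay between −0.25 and 0.23.

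More genes were called at P10, at shares near or below those of all genes. In P10 against P6, 6 of 44 genes fell and none rose, against 14.2% and 6.37% of all genes, whose median was −0.13, so that the share that fell was near the background. Psme1 (−0.66), Psme2 (−0.57), Psmb6 (−0.54), Psmd7 (−0.48) and Psma6 (−0.44) led, with the base scaffold Psmd1 the sixth; after scaling 1 of the 6, Psme1, was called (−0.52, adjusted p = 0.0394), against 9.82% of all genes. None of the 6 was called without P10 replicate 2 or without P6 replicate 1, and 2 were without P10 replicate 1. In P10 against P0, 13 fell and 3 rose, against 30.6% and 24.9% of all genes, a share of 44 near that background downward and below it upward. The falls were 8 without P10 replicate 1, 4 without P10 replicate 2 and 7 without P0 replicate 1, and the rises 1 without P10 replicate 1 or P0 replicate 2.

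Psme1 fell most, with 38.4 and 32.5 RPM at P10 against 85.1 and 91.1 RPM at P0 (log2 fold change −1.29, SE 0.17, adjusted p = 8.71e-06; scaled −1.19). Psme4 had 91.2 and 90.5 RPM at P10 against 159 and 137 RPM at P0 (log2 fold change −0.70, SE 0.15, adjusted p = 0.000817), and Psmg4 (−0.75), Psma6 (−0.52) and the lid gene Psmd11 (−0.51) followed. Psmb6 fell by 0.47 on the log2 scale, with Psmb5 at −0.23 and Psmb7 at −0.14 not called. The 3 that rose were Psmc5, with 226 and 226 RPM at P10 against 173 and 146 RPM at P0 (log2 fold change 0.51, SE 0.14, adjusted p = 0.00662), Psma3 (0.44) and Psmd8 (0.40). After scaling 5 fell, all among the 13, and the same 3 rose, against 27.5% and 27.6% of all genes. Mesenchyme, endothelium and neuron markers summed to 124 to 127 RPM at P10 against 638 to 812 RPM at P0, with 2 and 1 of the 13 at 0 in both libraries; markers of other retinal cells summed to 1005 to 1223 against 695 to 841 RPM. Their part was not tested.

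The d2 PGCLC libraries, set against the mean of the 12 other groups, had 35 of 44 genes higher and 1 lower, against 32.7% and 35.9% of the 14131 genes tested. Higher were 13 of 14 core, 14 of 17 regulatory, 4 of 7 chaperone and 4 of 4 activator genes. The members' median was 0.76, against −0.08 over all genes. Psme2 led, with 612 and 576 RPM in d2 PGCLC and 38.5 to 568 RPM in the 24 others (log2 fold change 1.88, SE 0.11, adjusted p = 1.71e-12). Psmg1 (1.50), Psma5 (1.33), the lid gene Psmd12 (1.33) and Psmb5 came next, Psmb5 with 569.8 and 525 RPM in d2 PGCLC against 159 to 314 RPM in the 24 others (log2 fold change 1.20, SE 0.11, adjusted p = 2.66e-09). Psmb6 (1.03) and Psmb7 (0.84) rose too, and Psmb11 (−0.92) was the 1 lower gene, a call lost without d2 PGCLC replicate 1. Of the 9 proteasome genes with other names, 8 were higher. The immunoproteasome genes differed in sign, with Psmb10 (2.63) and Psmb8 (2.01) higher and Psmb9 (−1.48) lower. The reference mean takes in the retina, where these 3 genes, Psme1 and the leading gene Psme2 (38.5 to 73.5 RPM) were low. Summed, the 3 came to 353 and 405 RPM in d2 PGCLC, 353 and 421 RPM at P3 and 584 to 970 RPM in B-lineage libraries. Psme1, at 456 and 449 RPM in d2 PGCLC, lay below both libraries of P3, P14, B cell and Blast. Psme2 in d2 PGCLC, at 612 and 576 RPM, lay close above Blast, at 525 and 568 RPM. After scaling 33 members were higher and 2, Psmb11 and Psmd8, lower, against 29.4% and 38.5% of all genes. The cells also differ from all others in strain, reporter and kind of culture, which cannot be told apart from cell type.

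The difference of PB from B cell was set directly against differences within the other lineages, in which age and sort gate changed together. Against P10 over P0 in the retina, the difference was positive and called for 16 of 44 genes and negative for 3, against 16.9% and 38.8% of all genes; after scaling it was 32 and 0, against 24% and 27.2%. The differences were 1.20 for Psme4, 0.99 for Psmd14 and 0.95 for Psmd11 upward, and −1.05 for Psmc5, −1.03 for Psmg3 and −0.67 for Psmd4 downward, and those 3 downward calls were lost after scaling. Against P14 over E16.5 in the intestine, the difference was positive for 11 and negative for 5, against 10.9% and 40.2%; after scaling it was 33 and 3, against 19.6% and 22.6%. Psmd8 (1.07), Psmb2 (1.00) and Psmb5 (0.99) led upward, and Psmg2 (−1.77), Psmg4 (−1.76) and Psme1 (−1.58) downward. Psmg4, Psme1 and Psmg3 were called downward on both scales, and Psmg2 and Psmd4 as deposited.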

How the data were processed

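The deposited table gives 1 value per gene and library for 26 libraries, and no column belongs to another series. The unit was read as signal, namely reads per 1000000 (RPM) that the authors deposited, per their name for the table, with 1 column a library per the file headers, for messages read at their 3′ ends. The submitters' processing notes list mm10 with Bowtie 1.0.1, TopHat 1.4.1, Cufflinks 2.2.0 and cutadapt 1.11; no source used here states how strand and shared reads were treated. The values had been taken for RPM when the tests were designed and were then registered as signal, since some libraries' sums over all lines exceed 1000000; the tests stayed the same. Of 26310 lines, 1164 without a number for every library were left out, none of them a member.

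Values were analysed as log2(RPM + 1). A gene entered a fit if 2 or more of its libraries reached 5 RPM. Genes were tested with limma 3.58.1 (R 4.3.3; trended moderated test, two-sided) in 1 fit per lineage (8 B-lineage, 6 intestinal and 10 retinal libraries), or of all 26, with Benjamini-Hochberg adjustment over all genes tested; a gene was called, and is said to have risen or fallen, at adjusted p under 0.05. Sums, shares and ratios carry no test. Depth was worked out from the RPM of a single read and limits low genes most: 24 of the 45 genes had whole-read values (within 0.02 of a read) in all libraries, and 21 in some of them. Scripts were tested on simulated data. Tables and figures used Python 3.11.15, NumPy 2.4.6, pandas 2.3.3 and matplotlib 3.10.9.

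Named in each comparison are Psmb5, Psmb6 and Psmb7, the up to 5 members with the largest change called in each direction (3 for differences between comparisons), the widest and narrowest of each role, and up to 4 genes of each related list; other names were added where a count of 5 or fewer, or the sixth of 6 calls, would have left them out, after their values were seen. The members and lists were chosen with earlier results of these data known. Alternatives were a smaller pseudocount, median-of-ratios scaling, quantile normalization, no filter, a fold minimum, a fit of the compared groups only, a replicate block and leaving out each library.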

Additional observations from a re-analysis of the deposited data

Results flagged for a closer look

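Each value here is a difference between 2 log2 fold changes that passed limma's test of the difference itself, on the deposited values. It is PB over B cell minus a difference in another lineage, in which age and sort gate changed together. Against P10 over P0 in the retina, the catalytic genes Psmb5 (0.76), Psmb6 (0.82) and Psmb7 (0.65), the lid genes Psmd11 (0.95) and Psmd14 (0.99) and the activator Psme4 (1.20) stood higher in the B-lineage difference. The ATPase Psmc5 (−1.05), the chaperone Psmg3 (−1.03) and the ubiquitin receptor Psmd4 (−0.67) stood lower, and none of these 3 was called after median-of-ratios scaling.

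Against P14 over E16.5 in the intestine, Psmb5 (0.99), Psmb7 (0.62), Psmb2 (1.00) and Psmd8 (1.07) stood higher. Psme1 (−1.58), Psmg2 (−1.77) and Psmg4 (−1.76) stood lower, and Psmg2 was not called after scaling. Both sets use the same PB and B cell libraries, so they are not independent.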

How the results depend on the processing

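Counts below are of members called higher or lower, with the cause of a change not tested. Over the counts, 246 alternatives stayed within 1.5 times the value given above, 71 gave fewer and 19 more; over single genes that were named or called, 1809 kept direction and call, 365 lost the call, 12 gained it and 4 turned round. The smaller pseudocount moved no count by over 1.5 times. Median-of-ratios scaling gave 1 higher and 0 lower in prePB against Blast, 5 lower in PB against prePB, 32 higher and 0 lower in PB against B cell, 0 lower in P14 against P3, 1 lower in P10 against P6, 5 lower in P10 against P0 and 2 lower in d2 PGCLC. For the difference of PB over B cell from the retina it gave 32 higher and 0 lower, and from the intestine 33 higher and 3 lower. Quantile normalization gave 1 higher and 1 lower in prePB against Blast, 6 lower in PB against prePB, 30 higher and 1 lower in PB against B cell, 9 higher in P3 against E16.5, 7 higher and 3 lower in P14 against E16.5, 3 lower in P10 against P6 and 2 lower in d2 PGCLC, with 31 higher and 1 lower for the difference from the retina and 21 higher and 2 lower for that from the intestine. In PB against B cell, Psmc5 turned to 0.26 (adjusted p = 0.252 in limma) and Psmg3 to 0.12 (adjusted p = 0.722) with median-of-ratios scaling, and with quantile normalization Psmg3 turned to 0.26 (adjusted p = 0.415) and Psmg2 to 0.0002.

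Without a filter there were 1 lower in prePB against Blast, 15 lower in PB against prePB, 3 higher and 0 lower in P3 against E16.5, 0 lower in P14 against P3, 3 lower in P14 against E16.5, 0 lower in P4 CD73+ against CD73- and 2 lower in P10 against P6. Fits of the compared groups only gave 1 lower in prePB against Blast and 4 lower in P14 against P3. A minimum change of 1 on the log2 scale left 19 higher in Blast against B cell (12.3% of all genes), 5 lower in PB against prePB (11.7%), 0 higher (7.2%) and 1 lower (40.5%) in PB against B cell, and 0 higher (15.8%) and 1 lower (20.1%) in P10 against P0. It left 9 higher (17.8%) and 0 lower (20.7%) in d2 PGCLC, and 1 and 2 higher for the differences from retina (14.9%) and intestine (9.24%). It left 0 of the calls in P3 (12.6% higher, 8.2% lower) or P14 (11.8% and 10.4%) against E16.5, and 0 falls in prePB against Blast (5.83%), in P4 CD73+ against CD73- (2.43%) and in P10 against P6 (7.62%); apart from Blast against B cell, these shares of members were near or below those of all genes.

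Leaving out 1 library at a time gave 26 to 32 higher and 0 to 0 lower in Blast against B cell, 0 to 0 and 0 to 2 in prePB against Blast, 0 to 0 and 12 to 19 in PB against prePB, and 4 to 9 and 2 to 6 in PB against B cell. It gave 3 to 7 higher and 0 to 1 lower in P3 against E16.5, 0 to 1 and 0 to 2 in P14 against P3, and 3 to 4 and 0 to 6 in P14 against E16.5. In the retina it gave 0 to 1 and 0 to 1 for P4 GFP+CD73- against P0, 0 to 0 and 0 to 1 for P4 CD73+ against CD73-, 0 to 0 and 0 to 0 for P6 against P4, 0 to 0 and 0 to 4 for P10 against P6, and 1 to 3 and 4 to 10 for P10 against P0. For d2 PGCLC it gave 30 to 31 and 0 to 1, for the difference from the retina 11 to 16 and 2 to 4, and for that from the intestine 9 to 13 and 4 to 6. A group left with 1 library is assumed to vary like the others.

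Groups share only replicate numbers 1 and 2. Deviations of same-numbered libraries correlated at −0.01 to 0.16 over the 6 B-lineage, −0.04 to 0.00 over the 3 intestinal and −0.03 to 0.24 over the 10 retinal pairs of groups. The highest values were 0.24 for P4 GFP+CD73- with P4 CD73+, 0.16 for Blast with prePB and 0.10 for prePB with PB. The numbers were not taken as a pairing in the main fits, and whether those sorts shared a culture or tissue was not tested. With a replicate block, 3 members were lower in P14 against P3 and 1 in P4 GFP+CD73- against P0, and the other counts stayed within 1.5 times.

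Depth, the unstated handling of strand and shared reads, 2 libraries a group and the low sum of the lines used in PB libraries limit these values; neither scale measures RNA per cell.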

Other observations

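Other lists close to the proteasome lay outside the comparisons above. Of the 7 tested genes around NFE2L1 and NFE2L2, the transcription factors that raise proteasome genes under stress, 4 fell and none rose in Blast against B cell, against 30.5% and 21.1% of all genes. Nfe2l2 itself had 24.3 and 36.8 RPM in Blast against 94.8 and 112 RPM in B cell libraries (log2 fold change −1.75, adjusted p = 4.87e-05 in limma), and Bach1 (−1.32), Mafk (−1.18) and Ngly1 (−1.09) fell with it. Messages say nothing of the activity of these factors, which is known to be set after translation.

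Of the 9 genes for shuttle factors and receptors that carry ubiquitin-tagged proteins to the proteasome, 1 rose and 1 fell in Blast against B cell (Rad23b 0.90 and Zfand5 −1.06). Of all genes, 21.1% rose and 30.5% fell in that comparison. In PB against B cell as deposited, 1 of the 9 rose and 4 fell, against 11.1% and 55.5% of all genes. After scaling 1 rose and none fell in PB against B cell, against 25.3% and 25.1% of all genes.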
